A study of Bos grunniens and Bos taurus with 11 samples.

Results

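Of the 856 numbered miRNA precursors predicted from the reads of yak and cattle lung, 61 form the set described here. A precursor entered when both of its rows, the 5p arm and the 3p arm under 1 number, had a mean of at least 1 RPM over the 11 libraries (RPM, reads per 1000000 of the reads given a name). Both rows were listed for 190 precursors, and 82 of these reached the limit in both arms. The rule left out 21 of the 82 by number. The members were thus chosen by their measured mean levels, so these levels are a description, and the ratio of the arms, how it varied between libraries and how it differed between groups are what was compared. Just inside the limit were m0266, whose 5p arm averaged 1.03 RPM from 20 reads in all, and m1608, whose 3p arm averaged 1.04 RPM from 25 reads. Just outside it were m0335 and m1330, whose 3p arms averaged 0.988 and 0.946 RPM.

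The study asked which small RNAs of the lung differ with altitude and between species. The CON group consisted of 2 adult male cattle of the Zaosheng breed, sampled at 1500 m. Each yak group consisted of 3 adult males, T1 from 3400 m, T2 from 4200 m and T3 from 5000 m. The labels name no treatment. The T2 yaks came from different counties, whereas T1 and T3 each came from a single place, and species and altitude cannot be told apart between yak and cattle. The labels call the tissue lung but their extraction text names retinas, and the predicted names hold no marker that could settle this.

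A miRNA precursor is a short hairpin. Dicer cuts it into a duplex of the 5p arm, from the first side of the stem, and the 3p arm, from the second side. As a rule an Argonaute protein keeps one strand as the guide that pairs with messenger RNAs, and the other strand is degraded, so the arms of 1 transcript can end at very different levels. The ratio of the arms differs between hairpins and, for some, between tissues or species, which is called arm switching. Because both arms are read in the same library, their plain ratio does not depend on the total to which the library was scaled. The ratio used below adds 1 RPM to each arm. For arms with few or no reads, that ratio does depend on the total. The tables give these hairpins numbers and not family names, so no target or function is named for any of them.

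The reads given a name numbered 1536041 (T1 1) to 5388032 (T2 1), fewer than the clean reads the paper lists for each library. The 61 precursors took from 7.02% of these named reads in T1 1 to 19.8% in T2 2. A level of 3 reads, taken as the detection limit, was between 0.557 RPM in T2 1 and 1.95 RPM in T1 1. The libraries T1 1, T3 1 and T3 2 stood apart. The most abundant name of the series, m1080-5p, held 21.7%, 12.8% and 10.1% of their reads and 35.1% to 64.6% in the other 8. The libraries CON 1 and T2 2 stood apart in another way, with 28 and 19 of the names taken from the miRBase catalogue against 88 to 118 elsewhere. Some counts that rest on these libraries are also given without them.

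The arms of most hairpins were far from equal. The mean levels of the arms lay within 2-fold in 7 precursors, 2- to 10-fold apart in 25, 10- to 100-fold apart in 17 and more than 100-fold apart in 12. The median precursor had 8.21 times more of its leading arm than of its minor arm, and the 21 precursors left out by number had a median of 119.6. The 5p arm led in more libraries in 35 members and the 3p arm in 24, while m1313 and m1531 were tied. The same arm led in all 11 libraries in 37 members, 23 of them by 5p and 14 by 3p. In 23 members at least 1 library was led by the other arm, and in 1 the exceptions were ties.

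**Figure D1:**
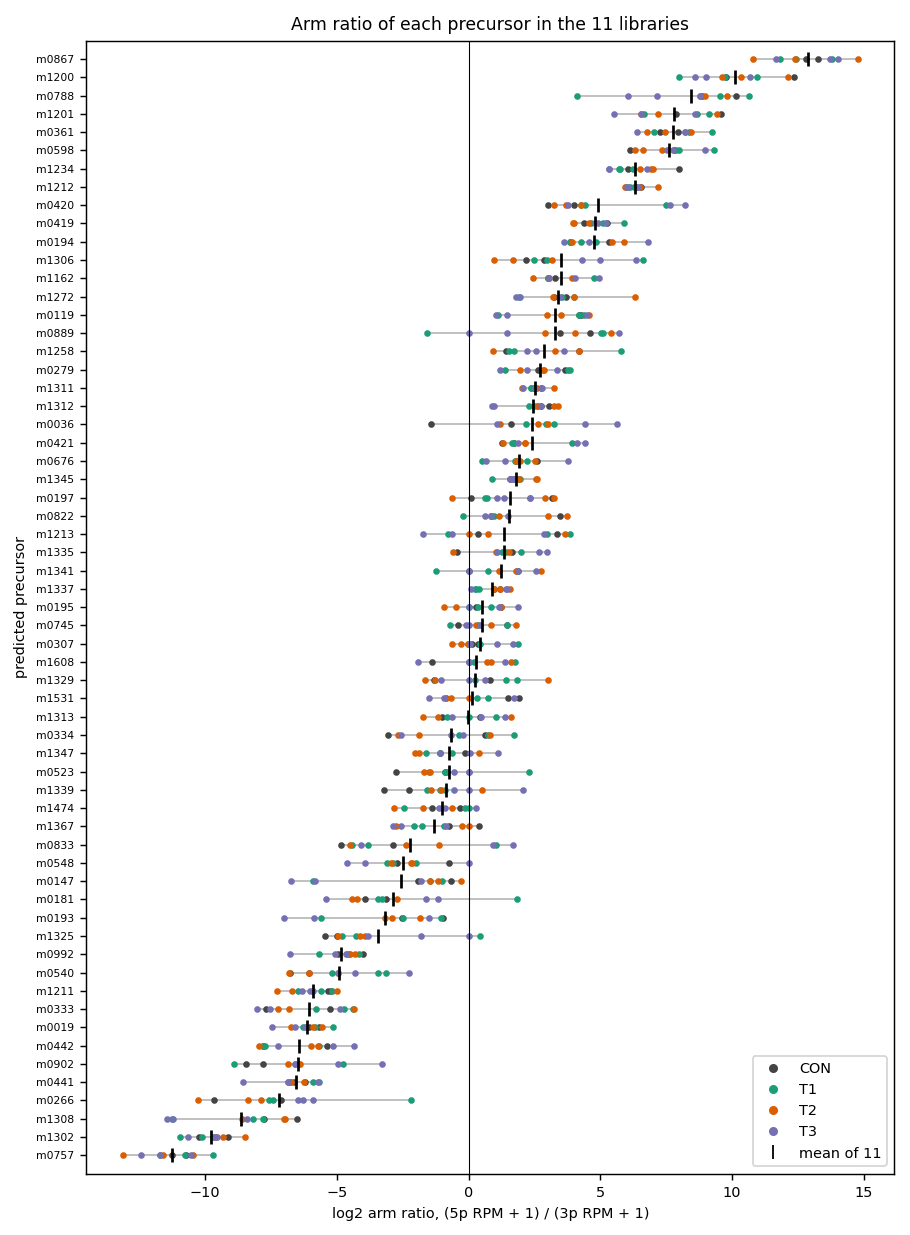
Each row is 1 of the 61 precursors and each point is the log2 arm ratio, (5p RPM + 1) / (3p RPM + 1), in 1 of the 11 libraries, coloured by group, with the mean of the 11 as a black bar. The means run from 12.87 for m0867 at the top to -11.27 for m0757 at the bottom, and points of all 4 groups are mixed along most rows.

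The arm ratio is given below as log2((5p RPM + 1) / (3p RPM + 1)), which is above 0 where 5p leads. The strongest 5p lead was that of m0867, at 12.87 ± 1.18 (SD, n = 11). Its 5p arm had 34050 and 21229 reads in the cattle, 21743, 41351 and 41864 in T1, 29157, 44327 and 22376 in T2, and 28737, 25168 and 47044 in T3. Its 3p arm had 1 and 0 reads in the cattle, 0, 9 and 5 in T1, 0, 0 and 10 in T2, and 0, 0 and 12 in T3. The minor arm reached 3 reads in 4 libraries (T1 2, T1 3, T2 3 and T3 3), and no library came near a change of lead. The next were m1200, at 10.11 ± 1.37, with 1115 to 5193 RPM of 5p and 0 to 5.14 RPM of 3p, and m0788, at 8.44 ± 1.94. The 5p arm of m0788 was at 107, 142 and 143 RPM in T1 1, T3 1 and T3 2 and at 1108 to 1593 RPM in the other 8 libraries, without overlap.

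The strongest 3p leads were those of m0757, m1302 and m1308. The ratio of m0757 was -11.27 ± 0.97 (SD, n = 11), with 4675 to 27877 RPM of 3p against 0 to 10.3 RPM of 5p. For m1302 both arms could be counted in every library. Its 3p arm had 25304 and 29867 reads in the cattle, 19841, 53285 and 41222 in T1, 25167, 27772 and 38114 in T2, and 29225, 26994 and 25104 in T3, and its 5p arm had between 15 and 65. The ratio of m1302 stayed between -10.97 and -8.48, with group means of -9.67 ± 0.78 in CON (SD, n = 2), -10.28 ± 0.64 in T1, -9.13 ± 0.58 in T2 and -9.96 ± 0.60 in T3 (SD, n = 3 each), so the 4 groups overlapped. The ratio of m1308 was more variable, from -11.44 to -6.50, with 0 to 141 reads of 5p and 956 to 19068 reads of 3p. By summed level the members were led by m0867, m1302 and m0598, whose 5p arm averaged 12349 RPM and whose 3p arm averaged 81.3 RPM.

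Near a ratio of 1 stood m1313, m1531 and m1329, and all of them were low. The arms of m1313 averaged 7.25 and 11.1 RPM, those of m1531 averaged 2.10 and 2.09 RPM, and those of m1329 averaged 5.79 and 6.73 RPM. For m1313 the 5p arm made up 31.9% and 58.3% of the reads of the hairpin in the cattle, 25.0%, 50% and 70.8% in T1, 21.2%, 30.5% and 79.3% in T2, and 33.3%, 100% and 60% in T3. Every group held libraries on either side of balance. The 100% of T3 2 rests on 3 reads, with a 95% Wilson interval from 43.9% to 100%, whereas the 79.3% of T2 3 (61.6% to 90.2%) and the 21.2% of T2 1 (15.5% to 28.2%) lie apart within 1 group. Such intervals cover counting error only. For m0334 the 5p share ran from 0% to 85.7%, at 6.52% in CON 1, 63.0% in CON 2, 19.2% in T2 1, 10.9% in T2 2 and 69.2% in T2 3.

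Many minor arms were read few times. The median member had 8.36 RPM of its minor arm. Both arms reached 3 reads in all 11 libraries in 25 members, and in 15 members they did so in fewer than 6 libraries. An arm was at 0 in 1 library or more in 35 members. The most even ratios were those of m1311 (SD 0.34 over 11 libraries), m1212 (SD 0.36) and m1345 (SD 0.47). The 3p arm of m1212 was at 0 in 3 libraries, where the pseudocount enters its ratio. The share of 5p in m1311 stayed between 80.8% and 90.6% while its 5p level ranged from 96.4 to 468 RPM. The least even was m0833, with an SD of 2.45. Over the members the median SD within groups was 1.11 for the log2 ratio, 1.05 for the log2 level of 5p and 1.14 for that of 3p. The ratio varied less than both of its arms in 17 members and more than both in 22.

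By the counting intervals of single libraries, a change of leading arm was seen in 12 members. The intervals were not adjusted for the number examined, and m1531 had 1 library on each side. These were m0181, m0197, m0307, m0334, m0822, m0833, m1213, m1313, m1329, m1335, m1339 and m1531, in which the 95% Wilson interval of the 5p share lay above 50% in some libraries and below it in others, among libraries with at least 10 reads of the hairpin. Several of them were abundant. Those described next were chosen after their values were seen.

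The clearest was m0833. Its 5p share was 12.0% and 3.34% in the cattle, 67.1%, 6.60% and 4.47% in T1, 31.5%, 16.0% and 4.14% in T2, and 76.1%, 65.6% and 5.47% in T3. The 5p arm led in T1 1, T3 1 and T3 2 and the 3p arm in the other 8 libraries. The 3p arm moved most, at 314, 189 and 237 RPM in those 3 libraries and 1498 to 5110 RPM in the others. The hairpin m1213 changed lead in the same 3 libraries and in the other direction. Its 5p share was 56.1% and 91.2% in the cattle, 36.6%, 88.8% and 93.6% in T1, 50.1%, 62.4% and 92.7% in T2, and 22.9%, 39.0% and 88.0% in T3. Here the 5p arm was lower, at 132, 61.9 and 92.5 RPM in T1 1, T3 1 and T3 2 against 533 to 1956 RPM in the others, while its 3p arm at 144 to 228 RPM lay within the 100 to 531 RPM of the others.

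The remaining abundant members with a change of lead followed the same or other libraries. For m0307, with arms near balance, the 5p share was 78.8%, 76.2% and 67.7% in T1 1, T3 1 and T3 2 and between 39.0% and 57.7% elsewhere. For m0822 the 5p share was 91.7% in CON 1, 89.0% in T2 1 and 92.9% in T2 2, and the 3p arm led in T1 1 alone, with 46.3% of 5p (95% Wilson interval 45.2% to 47.5%). The 5p arm of m0822 stood at 16669, 10328 and 20859 RPM in CON 1, T2 1 and T2 2 against 2161 to 6830 RPM in the other 8 libraries. The same 3 libraries had the highest 5p levels of m0197, at 320, 244 and 744 RPM against 21.8 to 56.0 RPM. For m1335 the 3p arm led in CON 1 and T2 2, where 5p made up 42.6% and 39.8%, and 5p led in the other 9 libraries with 67.2% to 89.0%. In m0197 the 3p arm led in 1 yak library. Apart from the 3p leads of m0822 and m0197, each in 1 library, these patterns run across a cattle or altitude boundary. None separates a whole group from the rest.

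**Figure D2:**
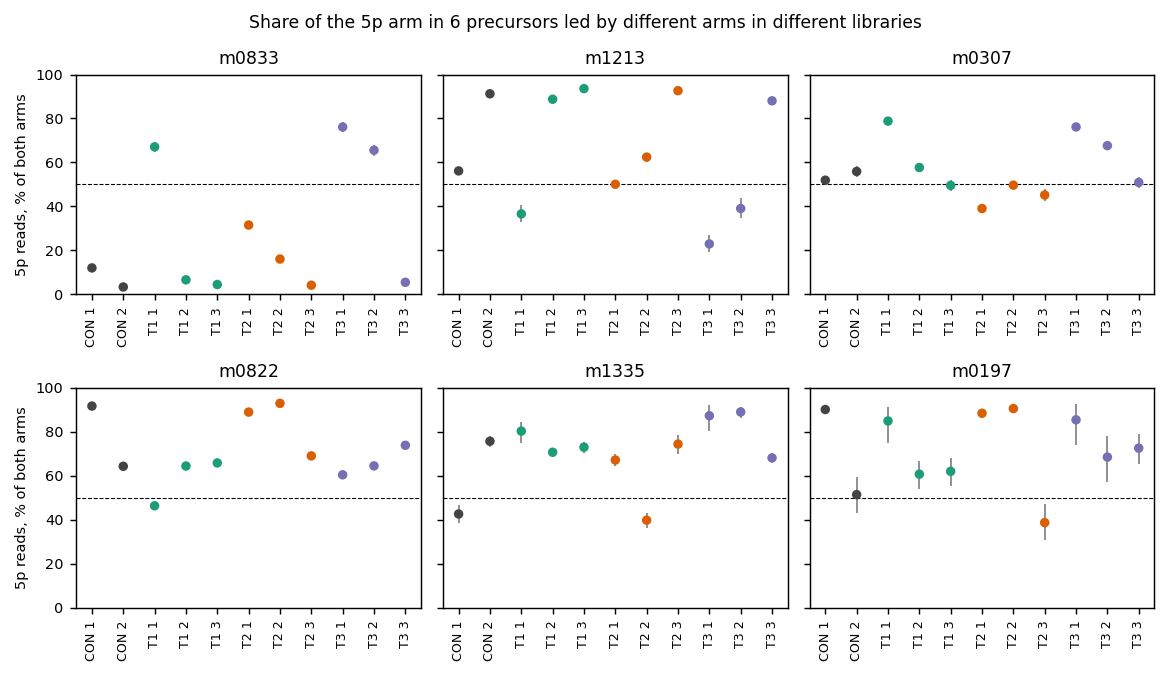
Each panel is a precursor with arms that exchange the lead, each point is the share of 5p reads among the reads of both arms in 1 library (percent, vertical axis) with its 95% Wilson interval, and colours mark CON, T1, T2 and T3 as named on the horizontal axis. In m0833 the points of T1 1, T3 1 and T3 2 lie at 67.1%, 76.1% and 65.6% and the others at 31.5% or lower, whereas in m1213 the same 3 libraries are the only ones under 50%.

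The departures of the ratios were shared between libraries of different groups. For each member the median ratio over the 11 libraries was subtracted, and the median size of what remained was 1.16 in T1 1, 1.18 in T3 1 and 1.31 in T3 2, against 0.31 to 0.79 in the other 8 libraries. Spearman's rho of these departures across the 61 precursors was 0.79 between T1 1 and T3 1, 0.73 between T3 1 and T3 2, and 0.68 between T1 1 and T3 2. The cattle library CON 1 was closest to the yak library T2 2 (rho 0.73), and the cattle library CON 2 to the yak library T1 2 (rho 0.51). For 2 of 11 libraries, T2 1 and T3 2, the closest one belonged to their own group. These are correlations across precursors that share a library and are not independent, and departures from a common median pull unrelated libraries below 0, so they are given as a description.

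**Figure D3:**
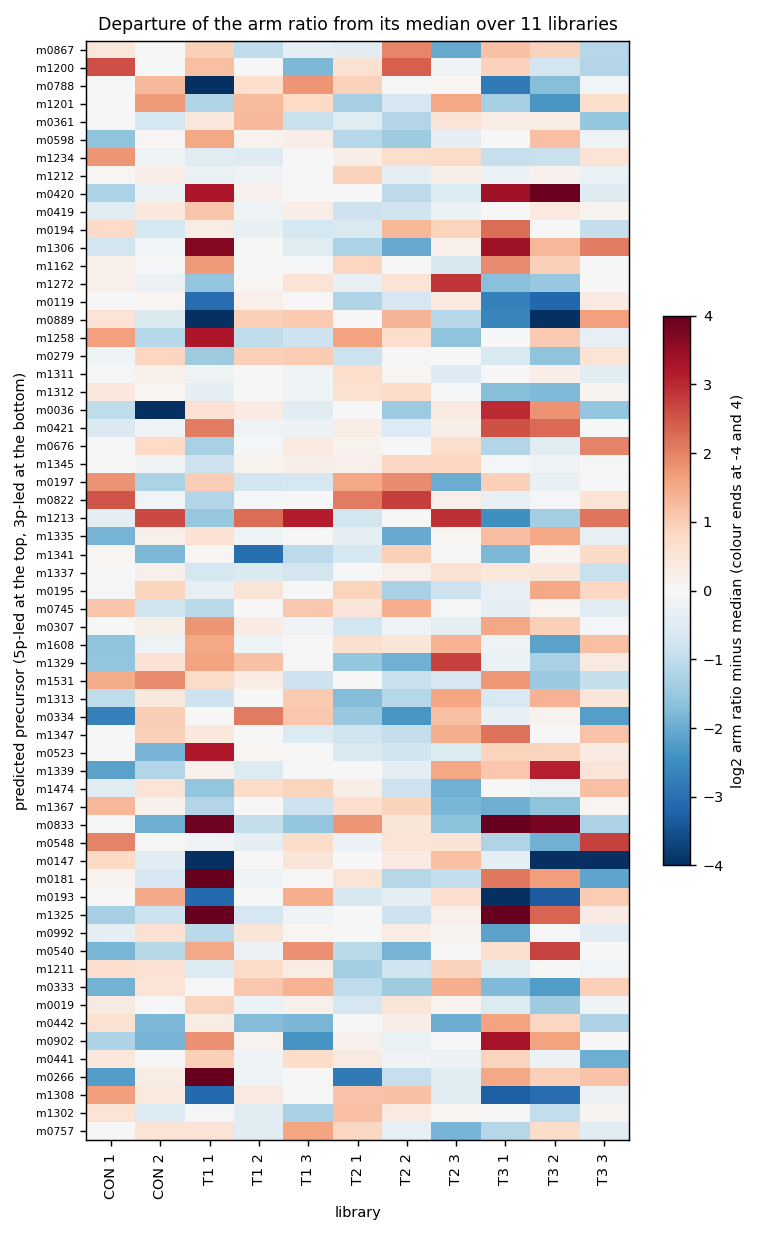
Rows are the 61 precursors in the order of their mean ratio, columns are the 11 libraries, and the colour is the log2 arm ratio minus the median of the precursor, cut at -4 and 4. The columns T1 1, T3 1 and T3 2 hold many of the dark cells and agree in sign for members such as m0420, m0833 and m0119.

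**Figure D4:**
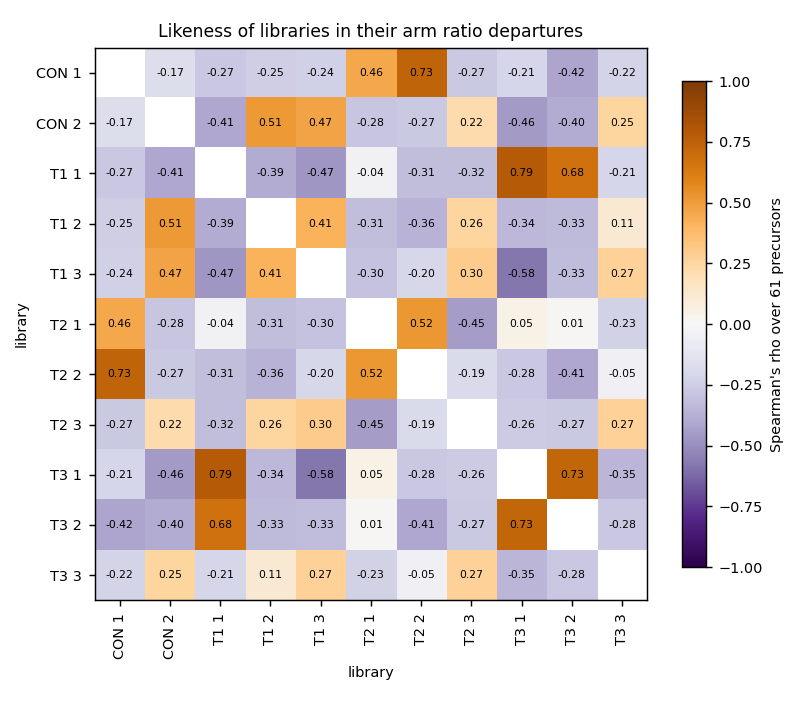
Both axes list the 11 libraries, and each cell gives Spearman's rho of their departures over the 61 precursors. High values join T1 1, T3 1 and T3 2 (0.68 to 0.79) and CON 1 with T2 2 (0.73), and do not follow the blocks of CON, T1, T2 and T3.

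Several members, chosen after their values were seen, show which arm moved in T1 1, T3 1 and T3 2. In m0420, led by 5p throughout, the 3p arm was at 11.7, 12.0 and 8.65 RPM there and at 29.7 to 174 RPM elsewhere, while 5p at 2307, 2624 and 2857 RPM was above the 588 to 2295 RPM of the others. The neighbouring number m0421 had the same shape, with 31.3, 18.9 and 25.4 RPM of 3p against 93.2 to 285 RPM. In m0119 it was the leading 5p arm that was low, at 25.4, 16.1 and 27.6 RPM against 256 to 706 RPM. In m0333, led by 3p, the minor 5p arm was at 14.3, 4.01 and 3.24 RPM there and at 65.6 to 105 RPM elsewhere, and its 3p arm was at 18043, 10901 and 16021 RPM in CON 1, T2 1 and T2 2 and at 856 to 2549 RPM in the other 8. Either arm, leading or minor, could thus be the one that was low.

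The same libraries differed in other measures. T1 1, T3 1 and T3 2 had 33, 31 and 36 members with both arms at 3 reads or more, against 45 to 53 elsewhere, and 15, 28 and 18 members with an arm at 0, against 1 to 12. Their totals of reads given a name were 1536041, 1744433 and 1849522, and T2 2, with 1589131, had 53 members with both arms at 3 reads. By the paper's sample order, T1 1, T3 1 and T3 2 had the highest shares of small RNA reads kept as clean. The mRNA libraries of the same animals had the lowest shares of uniquely mapped reads. CON 1 and T2 2 had the lowest raw base quality. The part of read totals, of these quality measures, of m1080-5p and of the number of catalogue names in these departures was not tested. Where an arm was at 0, the log2 ratio was set by the scaled level of the other arm. How much this added to the departures was also not tested.

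Between yak and cattle, no arm ratio of the 61 members differed at the threshold set. The test was limma's moderated test on the log2 ratio, fitted over all 82 precursors with both arms at 1 RPM, and a call needed both an adjusted p (Benjamini-Hochberg) below 0.05 and a ratio that changed 2-fold or more. It called 0 members, against 1.22% of the 82, and the smallest adjusted p of a member was 0.335. The 82 also hold the precursors left out by number. The 1 called was among these, as were most that passed at an unadjusted p. At an unadjusted p under 0.05 with the same fold, 3 members passed, against 9.76% of the 82, with 1 without CON 1 or CON 2 and 6 without T3 3. Without T3 3, 12 of the 82 passed. The median difference over the members was -0.11 on the log2 scale, against -0.06 over the 82, and 5p led 34 members in each of the cattle libraries and 31 to 37 in the yaks. The SE of the yak and cattle difference ran from 0.56 to 1.72 with a median of 0.89, so the libraries do not show that the ratios were equal. The count stayed at 0 without CON 1 and T2 2, with a term for them, and without T1 1, T3 1 and T3 2, and with edgeR or DESeq2 on the recovered reads. The replicates are separate animals.

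**Figure D5:**
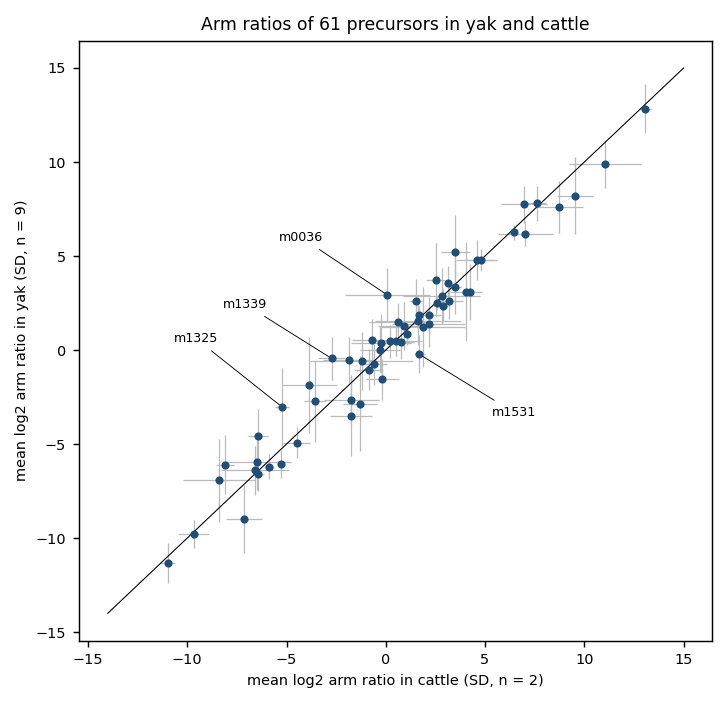
Each point is 1 of the 61 precursors, with its mean log2 arm ratio in the 2 cattle on the horizontal axis and in the 9 yaks on the vertical axis, SD bars on both and the line of equality. The points follow the line from -11.3 to 12.8 in yak, and the named ones (m1339, m1325, m0036 and m1531) are the farthest by test or the only ones whose libraries do not overlap, m1325 and m1339 on the higher side in yak.

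The lowest p belonged to m1339, a low hairpin. Its 5p arm had 0 of 20 and 0 of 11 reads in the cattle, 2 of 7, 3 of 17 and 2 of 9 in T1, 12 of 43, 2 of 10 and 1 of 1 in T2, and 0 of 0, 10 of 11 and 2 of 6 in T3. The mean log2 ratio was -2.73 ± 0.68 in CON (SD, n = 2) and -0.45 ± 1.15 in yak (SD, n = 9), a difference of 2.28 ± 0.82 (SE, limma, adjusted p = 0.335). Since the 5p arm was at 0 in both cattle, this difference depends on the pseudocount and is no bound, and it ran from 0.53 to 6.23 over 23 alternatives with adjusted p from 0.0766 to 0.996. The ratios of yak and cattle did not overlap in m1339 and m1325, both higher in yak, which is 2 of 61 members beside 6.1% of the 82 precursors. In m1325 the 5p arm had 1 of 150 and 1 of 122 reads in the cattle and from 0 of 35 to 6 of 10 reads in the yaks. The nearest libraries, CON 2 and T2 2, stood at -4.98 and -4.96, and T3 1, with no read of either arm in m1325 or m1339, entered at a ratio of 0.

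Next in order were m0036 and m1531. For m0036 the 5p arm had 8 of 9 and 0 of 5 reads in the cattle and led in all 9 yaks, with 71.1% to 100% of the reads, a difference of 2.84 ± 1.13 (SE, limma, adjusted p = 0.382). The cattle libraries were on opposite sides of balance. For m1531 the 5p arm had 10 of 12 and 8 of 8 reads in the cattle and between 0% and 100% of 2 to 17 reads in the yaks, a difference of -1.92 ± 0.86 (SE, limma, adjusted p = 0.461). None of these 3 hairpins had more than 157 reads in a library.

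Against cattle, each altitude taken alone gave 0 called members. For T1 against CON 0% of the 82 precursors were called, and at an unadjusted p 1 member passed (m0540) beside 4.88%. For T2 against CON 1.22% were called, and at an unadjusted p 1 member passed (m1531) beside 3.66%. For T3 against CON 3.66% were called, none of them a member, and at an unadjusted p 7 members passed beside 15.9%. Of these 7, 6 had a higher ratio in T3 (m0036, m0420, m0540, m0902, m1325 and m1339), beside 9.76% of the 82 that were higher, and m1308 had a lower one. This balance depended on the libraries. Without T1 1, T3 1 and T3 2, 4 members passed, 1 higher and 3 lower. Of the single libraries, leaving out T3 3 gave 16 (9 higher and 7 lower) and leaving out T1 1 gave 14, while 2 to 4 passed without CON 1, CON 2, T3 1 or T3 2. Over the 82 precursors, 27 passed without T3 3 and 21 without T1 1. The lowest adjusted p among the members was 0.0918, for m1339, with a difference of 3.24 ± 0.96 (SE, limma). On the recovered reads edgeR called 0 members and DESeq2 called m1339 (adjusted p = 0.0126), and a pseudocount of 0.5 reads in limma also called it (adjusted p = 0.0466). DESeq2 and this pseudocount each called 5 of the 82. These 3 comparisons share the 2 cattle libraries.

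The count of calls at 5000 m depended on which T3 libraries entered. Without T3 3, the call was made for 5 members (m0036, m0193, m0420, m1308 and m1339), and without T1 1, T3 1 and T3 2 for 1 member, m0147, with the remaining T3 library assumed to vary like the other groups. Of the 82 precursors, 11 were called without T3 3. In m0420, for example, the ratio was 3.01 and 4.02 in the cattle, 7.65 and 8.21 in T3 1 and T3 2, and 3.76 in T3 3. The T3 3 animal thus lay between the cattle.

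Among the yaks, T2 against T1 called 0% of the 82 precursors and 0 members, and 2 members passed at an unadjusted p beside 3.66%, with 0 without T1 1, T2 1 or T2 2, 1 without T3 1 or T3 2, and 6 without T2 3. Without T2 3, 12 of the 82 passed. In m0266 the 5p arm had 11 of 66, 1 of 654 and 0 of 433 reads in T1 and 1 of 7866, 3 of 1510 and 0 of 578 in T2, and the log2 ratio was -5.73 ± 3.08 in T1 and -8.84 ± 1.26 in T2 (SD, n = 3 each). The T1 value rests on the 11 reads of T1 1. In m0598 the ratio was 8.39 ± 0.79 in T1 and 6.76 ± 0.54 in T2 (SD, n = 3 each), a difference of -1.63 ± 0.75 (SE, limma, adjusted p = 0.617). Its 3p arm was at 6.51, 92.2 and 78.7 RPM in T1 and 67.6, 194 and 84.5 RPM in T2, and its 5p arm at 4749, 21814 and 20440 RPM in T1 and 6709, 15444 and 14009 RPM in T2.

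For T3 against T1, 0% of the 82 were called and 0 members passed at an unadjusted p, beside 1.22%. That count was 9 without T1 1 and 9 without T3 3, and 3 without T1 1, T3 1 and T3 2. Over the 82 precursors, 15 passed without T1 1 and 15 without T3 3. The lowest p values belonged to m1339, higher by 1.69 ± 0.86, and m0333, at -1.84 ± 1.06 (SE, limma, adjusted p = 0.822 for both). For T3 against T2, 0 members were called beside 1.22%, and 7 passed at an unadjusted p beside 12.2%. These were m0420, m0540 and m1306 with a higher and m0147, m1272, m1308 and m1312 with a lower ratio in T3, each with an adjusted p of 0.338. Over the 82 precursors, 27 passed without T3 3, and 3 without T2 2, T3 1 or T3 2. The count of 7 became 17 without T3 3, 1 without T2 2, T3 1 or T3 2, 3 or 4 without CON 1, CON 2, T1 3 or T2 1, 4 without T1 1, T3 1 and T3 2, and 0 without CON 1 and T2 2.

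The first of these by p was m1306, with a difference of 3.28 ± 1.12 (SE, limma, adjusted p = 0.338). Its 3p arm had 222, 25 and 6 reads in T2 and 0, 8 and 0 reads in T3, and its 5p arm had 724, 50 and 73 reads in T2 and 140, 192 and 76 reads in T3. The ratios of the 2 groups did not overlap, although the 3p arm was also at 0 in T1 1. In m0147 the 5p arm had 97, 62 and 59 reads in T2 and 59, 0 and 0 reads in T3, with 72 to 279 reads of 3p in these libraries. Its ratio was -0.97 ± 0.62 in T2 and -4.80 ± 2.62 in T3 (SD, n = 3 each), with a difference of -3.83 ± 1.44 (SE, limma, adjusted p = 0.338). The 5p arm of m0147 was also close to absent in T1 1, with 1 read beside 152 of 3p, and was present in T3 1. On the recovered reads edgeR called neither, and DESeq2 called m1306 (adjusted p = 0.0462) and m0147 (adjusted p = 0.0189). DESeq2 called 4 of the 82 precursors here.

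A linear trend with altitude over the 9 yaks was called for 0% of the 82 precursors and 0 members, and 0 members and 0% of the 82 passed at an unadjusted p. Without T1 1, 10 members passed at an unadjusted p beside 16 of the 82, 5 with a rising and 5 with a falling ratio. Without T3 3, 2 members passed beside 4 of the 82. The lowest p values were again those of m1339, with a slope of 1.06 ± 0.55 per 1000 m, and m0333, with -1.15 ± 0.63 per 1000 m (SE, limma, adjusted p = 0.891 for both). The ratio of m0333 was -4.98 ± 0.73 in T1, -6.14 ± 1.56 in T2 and -6.82 ± 1.71 in T3 (SD, n = 3 each), and the ranges of the 3 groups overlapped. The median slope over the members was -0.13, as over the 82 precursors.

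The levels of the single arms gave a like picture. With limma on log2(RPM + 1) over the 310 names whose mean reached 1 RPM, 0 of the 122 arms of the members were called in each of the 8 comparisons, beside 0.968% of all names between yak and cattle, 0.323% in each of T1, T2 and T3 against CON, and 0% among the yaks and in the trend. With edgeR or DESeq2 on the recovered reads the count was also 0 in each. At an unadjusted p with the fold limit, 2 arms passed between yak and cattle beside 5.16%, 1 for T1 against CON beside 6.45%, and 1 for T2 against CON beside 2.58%. Among the yaks, 3 passed for T2 against T1 beside 5.48%, 0 for T3 against T1 beside 2.9%, and 0 for the trend beside 1.29%. In bulk tissue, fewer cells of a type and less RNA per cell cannot be told apart, and a level is also relative to names such as m1080-5p that fill the rest of the library.

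T3 against CON and T3 against T2, but not T3 against T1, held most of the low p values of the levels. For T3 against CON 16 arms passed at an unadjusted p beside 14.5% of all names, 15 of them lower in T3 beside 10.6%. The 16 became 1 without T1 1, T3 1 and T3 2, 1 without CON 1 and T2 2, 2 without CON 1, 4 without T3 1, 2 without T3 2 and 35 without T3 3. Of all 310 names, 88 passed without T3 3. For T3 against T2 16 arms passed beside 13.9%, and all 16 were lower in T3, beside 11.9%. These became 3 (1 higher and 2 lower) without T1 1, T3 1 and T3 2, and 5 without CON 1 and T2 2. Leaving out single libraries gave 3 to 5 without T2 1, T2 2, T3 1 or T3 2, 26 without T1 1, 34 without T2 3 and 40 without T3 3. Of all 310 names, 62 passed without T1 1, 105 without T2 3 and 83 without T3 3. The split of directions also varied with the method. With RLE size factors 11 were lower and 1 higher for T3 against CON, and 11 lower and 5 higher for T3 against T2. For the 106 arms that edgeR kept, these were 3 lower and 1 higher, and 7 lower and 2 higher. DESeq2 had 8 lower and 8 higher for T3 against CON, and 10 lower and 7 higher for T3 against T2. The median level difference over the 122 arms was -0.90 for T3 against CON, where it was -0.37 over the 310 names, and -1.05 for T3 against T2, where it was -0.49. Without T1 1, T3 1 and T3 2 these medians were -0.14 and -0.20 over the arms and 0.12 and 0.03 over all names, and with RLE scaling they were -0.38 and -0.44 over the arms and 0.13 and 0.03 over all names. Both arms of m0676 were among these for both comparisons. Its 5p arm was at 85.7 and 13.3 RPM in CON, 49.2, 79.9 and 9.44 RPM in T2, and 0.573, 1.62 and 18.4 RPM in T3. The 5p arm of m1234 was at 1419 and 981 RPM in CON and at 39.0, 39.5 and 877 RPM in T3, with 124 RPM in T1 1. In both of these hairpins, which were picked after their values were seen, the T3 3 animal overlapped with the other groups.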

How the data were processed

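Small RNA libraries of 11 animals were analysed from 1 table per library. As the study's methods describe, the authors trimmed the reads, removed other RNA classes against Rfam and named known miRNAs from miRBase. The rest, from cattle too, were located with Bowtie2 on BosGru_v2.0, a yak assembly, for prediction by MIREAP. The versions of Bowtie2 and MIREAP are not given in the sources used here. The deposited values are RPM, and each library summed to 1000000 over 1377 names. All values of a library were whole multiples of its smallest (100% of 4651 values above 0, within 0.01 of a read), which gave the reads. No replicate pair was a duplicate (chi-square per degree of freedom 67.3 or higher).

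Arms were matched by number. The log2 ratio with a pseudocount of 1 RPM, which understates low arms, was tested with limma 3.58.1 in R 4.3.3 (variance trend on abundance, 1 mean per group, all 11 libraries, 82 precursors), and levels likewise over 310 names. The altitude trend used the 9 yaks per 1000 m with no fold limit. The study's methods name DESeq2 at a fold over 2 and an adjusted p under 0.05. Its abstract gives a p under 0.05 without calling it adjusted. Alternatives included edgeR 4.0.16 and DESeq2 1.42.0 on the recovered reads, other pseudocounts and filters, a replicate block and each library left out. Scripts were tested on simulated data.

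The members, lists and tests were chosen with earlier results of these data known. Values per library are given for the extreme and balanced ratios, the highest levels, the lowest p values of yak against cattle, of the yak groups and of the trend, the most frequent changes of lead and the edge of the limit. Other members named were chosen after their values were seen. No sequences or coordinates were used here.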

Additional observations from a re-analysis of the deposited data

Results flagged for a closer look

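Among 25 measures compared over the 9 yak libraries, 3 held a library whose gap to its nearest neighbour was a larger part of the whole range than Dixon's 95% limit for 9 samples allows, where chance gives about 1.25. The total of T2 1 was 5388032 reads given a name, the highest of the yaks. The 61 precursors took 19.8% of the reads of T2 2, which is also 1 of the 2 libraries with few names from the miRBase catalogue. The log2 arm ratio of m1608 was -1.93 in T3 2, from 1 read of 5p and 9 of 3p, the lowest of the yaks.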

How the results depend on the processing

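With edgeR's quasi-likelihood test on the recovered reads, 0 members were called in each of the 8 comparisons of the ratio and of the levels. With limma and an unadjusted p the ratio counts were 3 for yak against cattle, 1 and 1 for T1 and T2 against CON, 7 for T3 against CON, 2 for T2 against T1 and 7 for T3 against T2, and the level counts were 2, 1, 1, 16, 3 and 16 in the same order. For the ratio in T3 against CON, a pseudocount of 0.5 reads and DESeq2 each called 1 member (m1339), leaving out T1 1, T3 1 and T3 2 (chosen after seeing the data) called 1 (m0147), and leaving out single libraries gave 0 to 5, the 5 without T3 3. For the ratio in T3 against T2, DESeq2 called 2 (m1306 at 4.82 and m0147 at -5.85), leaving out T1 1, T3 1 and T3 2 called 1 (m0147 at -4.86), and leaving out single libraries gave 0 to 3, the 3 without T3 3 (m0420, m1308 and m1312). For the levels, leaving out CON 1 and T2 2 (also chosen after seeing the data) called 0, and leaving out single libraries gave 0 to 1 in T3 against CON (m1234-5p without T3 3) and 0 to 3 in T3 against T2. The last was 2 without T2 3 (m0676-3p and m1308-5p) and 3 without T3 3 (m0333-5p, m0833-3p and m1234-5p). Over all 82 precursors, T3 against CON had 5 calls with a pseudocount of 0.5 reads, 5 with DESeq2 and 11 without T3 3. T3 against T2 had 4 with DESeq2 and 8 without T3 3. Over the 310 names, the levels had 4 calls for T3 against CON without T3 3. For T3 against T2 they had 12 without T2 3 and 14 without T3 3. The cause of these changes was not tested. Where a library left out leaves 1 in its group, that one is assumed to vary like the other groups. Between same-numbered libraries, r of the deviations of the ratio from group means over the 82 precursors ran from -0.55 to 0.71. This range does not show that the numbers pair the animals, and cannot show that they do not. With the replicate number as a block, 4 members were called for T3 against CON (m0193, m0833, m0902 and m1213), beside 9 of the 82. By the same r, 5 of 11 libraries correlated best with a library of their own number in another group. Of the single member ratios recomputed, 260 showed an unaltered direction and call, and 3 became calls, those with m1306 and m0147 above. The recomputed ratios were those with the lowest p in yak against cattle, in the yak groups and in the trend. T3 against CON, where most of the alternative calls arose, was not among them. The count of members led by 5p was 35 by reads per library, with at least 10 reads and by pooled reads. In 36 members an arm was under 3 reads in some library, which limits those ratios.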
